A study of Mus musculus with 6 samples.

Results

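Type I interferon-stimulated genes are the genes that cells switch on to resist viruses, and 39 of them were followed here in the cells that stay on the lens capsule after cataract surgery in mice. The set was chosen by gene symbol and holds antiviral effectors together with the transcription factors that drive them. All 39 were found among the 24147 genes of the deposited tables. At 24 h the lens capsules came from wild type C57BL/6 mice, 2 months old, collected a day after an operation that removed the lens fiber cells by way of a corneal incision (3 libraries). At 0 h they came from mice of the same strain, genotype and age, collected straight after the same operation (3 libraries). The comparison asks how the remaining lens epithelial cells respond to the operation, and no unoperated lens is among the libraries. The labels do not give the number of animals or eyes pooled in a library.

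In the textbook pathway, interferon alpha and beta bind a receptor made of Ifnar1 and Ifnar2, and the kinases Jak1 and Tyk2 then activate Stat2 and other factors. With Irf9, Stat2 acts in the complex ISGF3, which binds the interferon-stimulated response element (ISRE) near target genes. Irf7, Stat2 and Irf9 are themselves such targets, so the response can feed itself, and many targets can also be induced through Irf1, Irf3 or Irf7 without secreted interferon. The lens has no blood vessels, and its epithelium is a single cell layer under the capsule.

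Summed gene counts were 8069314 to 9249248 in the 24 h libraries and 8734906 to 10862573 in the 0 h libraries. The labelled tissue was checked against lens markers, and Cryaa, Pax6, Foxe3 and Cdh1 were detected in every library. Lens markers moved with the members but the other way: all 7 lens fiber markers were lower at 24 h, with a median fold change of 0.303, and 4 of 8 lens epithelium markers were (Foxe3, Fgfr3, Cryab and Slc38a3), with 0 higher. Cdh1 had 308, 363 and 417 CPM in the 24 h libraries and 394, 300.5 and 446 CPM in the 0 h libraries (adjusted p = 0.833, edgeR). The part of this shift in the members' change was not tested. A 24 h library stood apart. In 24 h replicate 1 the ribosomal RNA precursor gene Rn45s took 15.4% of counts, against 5.04% and 5.001% in 24 h replicates 2 and 3 and 2.44% to 3.45% in the 0 h libraries. The pigment cell genes Dct and Tyr were also highest there. Dct had 489, 63.7 and 254 CPM (counts per 1000000 counts, scaled by TMM) in the 24 h libraries and 52.6, 69.5 and 19.9 CPM in the 0 h libraries. Tyr had 58.1, 4.67 and 16.7 CPM in the 24 h libraries and 5.11, 8.22 and 5.86 CPM in the 0 h libraries. Of all 10 markers of ciliary epithelium, pigment and retina, 5 were highest in 24 h replicate 1, 3 in 24 h replicate 2 and 2 in 24 h replicate 3. At 24 h Dct was called higher, Rgr, Rpe65, Lrat and Cst3 were lower, and 5 were not called. Without 24 h replicate 1, Dct and Cst3 were not called (adjusted p = 0.0763 and 0.140, edgeR). The retinal gene Sag had 421, 452 and 166 CPM in the 24 h libraries and 562, 754 and 218 CPM in the 0 h libraries. Each result that rests on this library is therefore given with it and without it. These are bulk libraries, so more cells of a type and more RNA per cell cannot be told apart.

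The promoters below are shown because the ISRE is the DNA element through which these genes are known to respond to interferon. They run from 250 bases before the RefSeq transcription start to 50 bases after it on build GRCm38.p6, are written 5′ to 3′ on the gene's strand, and have in capitals every match to the ISRE core GAAANNGAAA on either strand, where N is any base. Isg15 carried the most matches of the member promoters searched, and Rsad2 had the highest fold change of the 39 genes. Ifit1, Ifit3 and Ifit2 are neighbours of which Ifit2 was not called. Ifitm3 and Ifitm2 are close relatives of which Ifitm2 was not called.
Isg15 (chr4:156200769-156201068, minus strand): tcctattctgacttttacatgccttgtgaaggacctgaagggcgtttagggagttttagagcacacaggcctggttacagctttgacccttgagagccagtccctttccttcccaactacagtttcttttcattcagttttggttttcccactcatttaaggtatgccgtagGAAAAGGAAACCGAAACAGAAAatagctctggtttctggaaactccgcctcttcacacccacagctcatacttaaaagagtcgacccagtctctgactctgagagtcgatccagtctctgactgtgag
Rsad2 (chr12:26456403-26456702, minus strand): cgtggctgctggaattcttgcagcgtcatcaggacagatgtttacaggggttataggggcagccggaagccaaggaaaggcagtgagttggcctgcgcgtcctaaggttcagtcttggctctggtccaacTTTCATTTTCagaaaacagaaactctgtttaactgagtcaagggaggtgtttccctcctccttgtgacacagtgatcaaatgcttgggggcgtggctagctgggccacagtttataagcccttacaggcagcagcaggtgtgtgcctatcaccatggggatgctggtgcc
Ifit1 (chr19:34640639-34640938, plus strand): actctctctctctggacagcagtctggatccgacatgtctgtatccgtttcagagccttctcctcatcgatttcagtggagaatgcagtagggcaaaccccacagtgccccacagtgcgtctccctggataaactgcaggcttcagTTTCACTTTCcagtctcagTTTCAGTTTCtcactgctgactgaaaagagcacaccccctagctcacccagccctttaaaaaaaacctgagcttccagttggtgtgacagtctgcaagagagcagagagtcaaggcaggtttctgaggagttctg
Ifit3 (chr19:34583279-34583578, plus strand): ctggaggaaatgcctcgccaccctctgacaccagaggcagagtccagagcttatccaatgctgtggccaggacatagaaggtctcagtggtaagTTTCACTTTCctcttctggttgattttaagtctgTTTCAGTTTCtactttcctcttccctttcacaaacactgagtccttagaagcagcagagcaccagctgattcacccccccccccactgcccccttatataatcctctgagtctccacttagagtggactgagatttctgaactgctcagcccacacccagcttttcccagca
Ifit2 (chr19:34550444-34550743, plus strand): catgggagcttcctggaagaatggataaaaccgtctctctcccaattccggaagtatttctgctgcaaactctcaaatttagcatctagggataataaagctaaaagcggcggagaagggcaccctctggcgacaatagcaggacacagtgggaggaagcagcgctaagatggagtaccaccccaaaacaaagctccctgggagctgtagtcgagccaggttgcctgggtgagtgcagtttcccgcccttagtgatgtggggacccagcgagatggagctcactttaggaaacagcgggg
Ifitm3 (chr7:141010695-141010994, minus strand): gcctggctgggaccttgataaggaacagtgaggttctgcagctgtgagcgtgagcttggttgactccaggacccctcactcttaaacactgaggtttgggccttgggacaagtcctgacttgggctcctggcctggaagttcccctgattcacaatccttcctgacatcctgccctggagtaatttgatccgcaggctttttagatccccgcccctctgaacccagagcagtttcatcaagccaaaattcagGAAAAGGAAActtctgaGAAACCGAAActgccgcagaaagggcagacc
Ifitm2 (chr7:140955912-140956211, minus strand): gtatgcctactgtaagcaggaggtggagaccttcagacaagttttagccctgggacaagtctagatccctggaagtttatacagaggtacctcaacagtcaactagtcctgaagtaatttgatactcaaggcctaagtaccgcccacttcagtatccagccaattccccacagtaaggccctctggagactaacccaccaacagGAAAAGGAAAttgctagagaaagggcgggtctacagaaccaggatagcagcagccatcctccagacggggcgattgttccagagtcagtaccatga

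At 24 h, 37 of the 39 genes were higher than at 0 h and 0 were lower, by edgeR's quasi-likelihood test with Benjamini-Hochberg adjustment over all 13956 genes tested and a threshold of 0.05 on the adjusted p. Over all genes tested, 15.2% were called higher and 13.0% lower. For 37 members every 24 h library lay above every 0 h library, which held for 22.9% of all genes tested. The 2 exceptions in both counts were Ifit2 and Ifitm2. Fold changes of the called members ran from 2.36 for Eif2ak2 to 43.4 for Rsad2, with 24 above 4-fold and 12 above 8-fold. The median log2 fold change of the members was 2.45, against -0.03 over all genes tested. Without 24 h replicate 1 the median was 2.07 and 33 members were called higher, where 13.1% of all genes tested were. The members no longer called without it were Mx1, Mx2, Cmpk2 and Oas3. All 39 members passed the filter on low counts, but 9 of them (Zbp1, Oas1a, Oas1b, Oasl1, Mx1, Rsad2, Ifi27l2a, Ifi44 and Rtp4) passed only through their 24 h counts. That bears on the count of higher members. Among all genes tested 1108 passed in this way, of which 369 were called higher.

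Together the 39 genes made up 0.349%, 0.197% and 0.244% of counts in 24 h replicates 1, 2 and 3, against 0.0512%, 0.0636% and 0.0651% of counts in 0 h replicates 1, 2 and 3. Their summed level was 3603, 1804 and 2389.8 CPM in the 24 h libraries and 557, 599 and 694 CPM in the 0 h libraries. The groups did not overlap, and the 24 h libraries were spread more widely than the 0 h libraries.

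**Figure D1:**
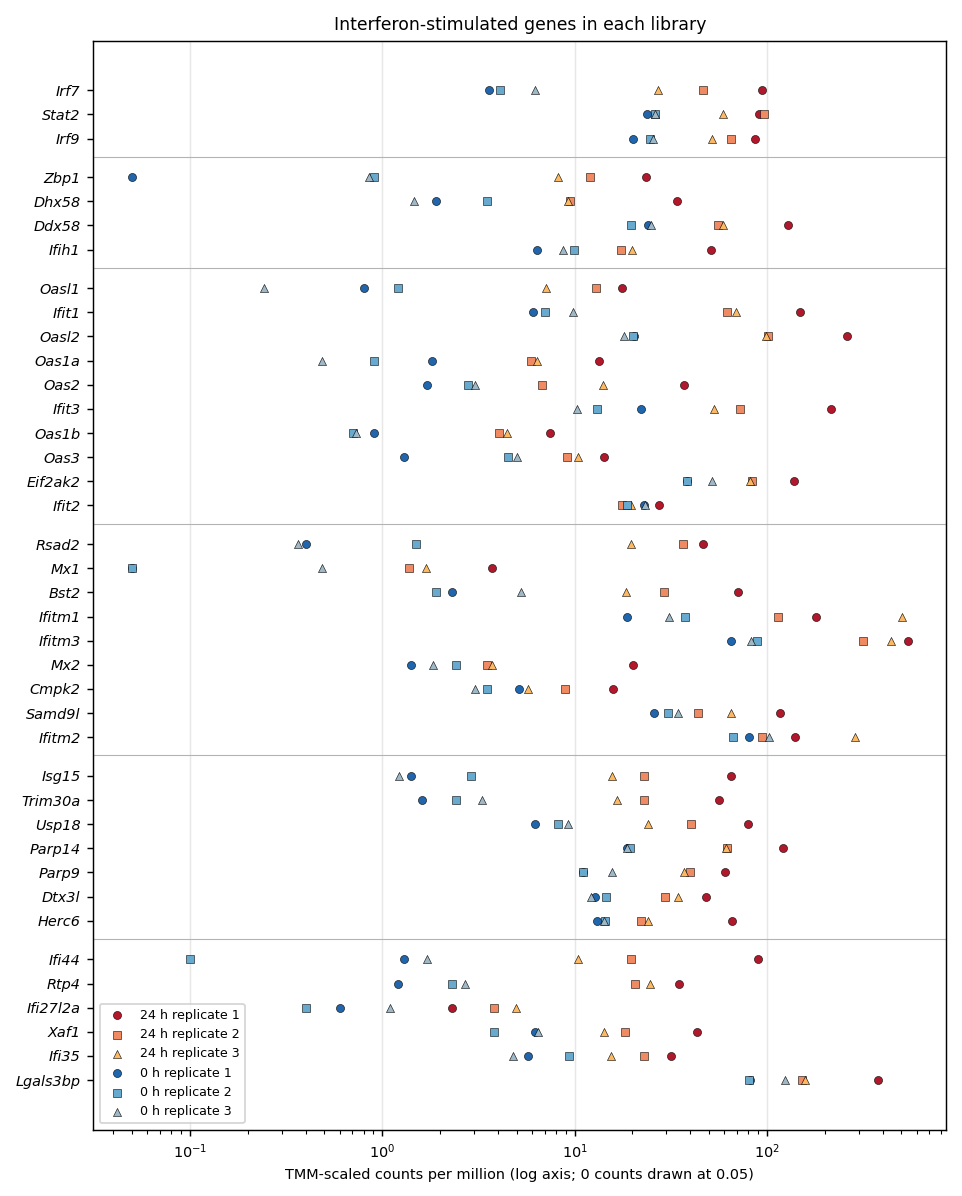
Level of each of the 39 interferon-stimulated genes in each library, in TMM-scaled CPM on a log axis with 0 counts drawn at 0.05. Genes are grouped by role from the top as regulators, nucleic acid sensors, blockers of RNA and translation, blockers of entry and replication, protein modifiers and other induced genes, and the 24 h points (red and orange) lie right of the 0 h points (blue) for every gene but Ifit2 and Ifitm2.

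The 3 regulators all rose. Stat2, a transcription factor of ISGF3, had 91.2, 96.0 and 58.8 CPM in the 24 h libraries and 23.7, 26.1 and 26.2 CPM in the 0 h libraries, a log2 fold change of 1.69 ± 0.20 (SE, adjusted p = 0.000553). It was the only member that was highest in 24 h replicate 2. Irf9, the DNA-binding part of ISGF3, had 87.0, 64.7 and 51.6 CPM in the 24 h libraries and 20.04, 24.6 and 25.6 CPM in the 0 h libraries, a log2 fold change of 1.53 ± 0.21 (SE, adjusted p = 0.00119). Irf7, which amplifies the response in most cell types, had 93.7, 46.6 and 27.3 CPM in the 24 h libraries and 3.61, 4.11 and 6.22 CPM in the 0 h libraries. Its log2 fold change was 3.59 ± 0.46 (SE, adjusted p = 0.000876), and 3.04 without 24 h replicate 1. For each of the 3 the lowest 24 h library was well above the highest 0 h library, and per kilobase of gene length Irf7 was the scarcest of them at 0 h (2.499 CPM, against 5.77 CPM for Stat2 and 8.72 CPM for Irf9).

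The 4 sensors of foreign nucleic acid rose. Ddx58 encodes RIG-I, which senses RNA with a 5′ triphosphate, and had 129, 55.6 and 59.3 CPM in the 24 h libraries and 24.1, 19.5 and 24.9 CPM in the 0 h libraries (fold change 3.56, adjusted p = 0.00378). Ifih1 encodes MDA5, the sensor of long double-stranded RNA, and had 51.4, 17.4 and 19.98 CPM in the 24 h libraries and 6.41, 9.92 and 8.66 CPM in the 0 h libraries (fold change 3.54, adjusted p = 0.0127). All 24 h libraries were above all 0 h libraries for both genes, with 24 h replicate 1 more than 2-fold above the mean of the other 24 h libraries. Ifih1 lost its call without 0 h replicate 1 (log2 fold change 1.69, adjusted p = 0.0552). Dhx58, which encodes the related helicase LGP2, had 34.1, 9.45 and 9.199 CPM in the 24 h libraries and 1.90, 3.51 and 1.46 CPM in the 0 h libraries. Zbp1, a sensor of Z-form nucleic acid that can start necroptosis, had 23.4, 12.0 and 8.25 CPM in the 24 h libraries and 0, 0.902 and 0.854 CPM in the 0 h libraries. Zbp1 had 0 counts in 0 h replicate 1, and its fold change was 24.7 (adjusted p = 0.00274).

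Of 10 genes grouped as blockers of RNA and translation, 9 rose. Ifit1, which binds viral RNA that lacks a methylated cap, had 149, 61.9 and 68.7 CPM in the 24 h libraries and 6.11, 7.01 and 9.76 CPM in the 0 h libraries, a log2 fold change of 3.62 ± 0.38 (SE, adjusted p = 0.000335). Ifit3, which forms a complex with Ifit1 in human cells, had 214, 72.6 and 53.2 CPM in the 24 h libraries and 22.1, 13.0 and 10.2 CPM in the 0 h libraries (fold change 7.44, adjusted p = 0.00475). Ifit3 has a near-identical copy, listed as I830012O16Rik, which had 72.6, 19.2 and 15.1 CPM in the 24 h libraries and 10.5, 7.51 and 9.64 CPM in the 0 h libraries, so the split of reads between the pair is uncertain. Both Ifit1 and Ifit3 were highest in 24 h replicate 1, and their other 24 h libraries still lay above all 0 h libraries.

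Active 2′-5′ oligoadenylate synthetases make the messenger that activates RNase L, which degrades RNA. Whether each Oas gene below encodes an active enzyme in these mice was not tested. Oas1a, Oas1b, Oas2 and Oas3 had fold changes of 7.83, 6.68, 7.64 and 3.12, and their highest 0 h libraries stood at 1.80, 0.902, 3.05 and 5.003 CPM. The split of reads between Oas1a and its copy Oas1g is uncertain. Oas3 lost its call on leaving out replicate 1 at 24 h or replicate 2 at 0 h, with adjusted p values of 0.0851 and 0.0538. Oas2 lost its call with limma-voom (adjusted p = 0.0585). The related Oasl2, which has an oligoadenylate synthetase domain and ubiquitin-like repeats, had 262, 101 and 98.9 CPM in the 24 h libraries and 20.3, 20.1 and 18.1 CPM in the 0 h libraries (fold change 7.87, adjusted p = 0.000854). Oasl1, known in mouse as a brake on Irf7 translation, had 17.6, 13.0 and 7.08 CPM in the 24 h libraries and 0.802, 1.20 and 0.244 CPM in the 0 h libraries. Eif2ak2 encodes PKR, the kinase that stops translation when it binds double-stranded RNA. It had 139, 83.8 and 81.3 CPM in the 24 h libraries and 38.4, 38.5 and 52.0 CPM in the 0 h libraries, the smallest fold change among the called members. Per kilobase of gene length its mean level at 0 h, 9.93 CPM, was exceeded by Ifitm2, Ifitm3, Lgals3bp and Ifitm1 alone.

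Ifit2, a relative of Ifit1 and Ifit3 that also restrains translation, was not called and had the fold change nearest to 1 of all members. It had 27.5, 17.7 and 19.7 CPM in the 24 h libraries and 23.05, 18.8 and 23.3 CPM in the 0 h libraries, so the groups overlapped. Its log2 fold change was -0.01 ± 0.21 (SE, adjusted p = 0.982), with a 95% interval of -0.59 to 0.58 that rests on the spread between libraries. The counts behind it were 568 over the 24 h libraries and 609 over the 0 h libraries, so the value does not rest on a few reads. Ifit2 lies next to Ifit3 and Ifit1 on chromosome 19 (mm10, 34550694 to 34576534 for Ifit2, 34583529 to 34588982 for Ifit3 and 34640889 to 34650009 for Ifit1), and both neighbours rose more than 4-fold. Per kilobase of gene length the mean levels at 24 h were 5.48 CPM for Ifit2, 56.7 CPM for Ifit3 and 35.4 CPM for Ifit1. At 0 h they were 5.50 CPM for Ifit2, 7.58 CPM for Ifit3 and 2.89 CPM for Ifit1, a much narrower range than at 24 h. In the promoters printed above, positions are counted from 0 at the first transcribed base. The ISRE core occurred at -104 and -85 for Ifit1 and at -156 and -122 for Ifit3. It occurred at no place in the printed Ifit2 window or in the other RefSeq window of Ifit2, which is not printed.

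Of 9 genes that block virus entry, replication or release, 8 rose. Rsad2 encodes viperin, a radical enzyme that makes a chain-terminating nucleotide, and had 46.7, 36.4 and 19.7 CPM in the 24 h libraries and 0.401, 1.503 and 0.366 CPM in the 0 h libraries. Its log2 fold change of 5.44 ± 0.53 (SE, adjusted p = 0.000249) was the highest of the 39, and was 5.19 without 24 h replicate 1. In fresh tissue Rsad2 was near the limit of detection, where 3 counts correspond to 0.301 to 0.366 CPM in a 0 h library. Cmpk2, which lies beside Rsad2 on chromosome 12 and supplies nucleoside triphosphates in mitochondria, had 15.9, 8.92 and 5.71 CPM in the 24 h libraries and 5.11, 3.51 and 3.05 CPM in the 0 h libraries (adjusted p = 0.0407). Cmpk2 was not called when any single library but 24 h replicate 3 was left out, and its adjusted p ran from 0.0112 to 0.147 over 14 alternatives.

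The interferon-induced transmembrane proteins stop viruses from fusing with cell membranes, and per kilobase of gene length they were the most abundant members at 24 h. Ifitm3 had 539, 317 and 444 CPM in the 24 h libraries and 64.9, 89.3 and 82.8 CPM in the 0 h libraries, a log2 fold change of 2.45 ± 0.23 (SE, adjusted p = 0.000204). Ifitm1 had 181, 114 and 505 CPM in the 24 h libraries and 18.6, 37.7 and 31.0 CPM in the 0 h libraries (fold change 9.16, adjusted p = 0.00328). Ifitm2 had 140.4, 94.2 and 286 CPM in the 24 h libraries and 80.4, 66.3 and 102 CPM in the 0 h libraries. The Ifitm2 groups overlapped, because 24 h replicate 2 lay below the highest 0 h library. Its log2 fold change was 1.06 ± 0.37 (SE), with a 95% interval of 0.04 to 2.09, and the adjusted p of 0.0619 put it just outside the threshold. Ifitm2 was called in 5 of 14 alternatives, among them with library totals only, without the low-count filter, with DESeq2 and without replicate 2 at 24 h, with adjusted p values of 0.0406, 0.0381, 0.0129 and 0.0174. Per kilobase of gene length the 3 genes had 669, 317 and 277 CPM at 24 h and 122, 34.6 and 132 CPM at 0 h for Ifitm3, Ifitm1 and Ifitm2. Ifitm1 and Ifitm2 were highest in 24 h replicate 3, unlike most members. The 3 genes are close copies, so reads may have been shared between them.

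Bst2 encodes tetherin, which holds budding virus on the cell, and had 71.0, 29.2 and 18.6 CPM in the 24 h libraries and 2.30, 1.90 and 5.25 CPM in the 0 h libraries (fold change 12.7, adjusted p = 0.00224). Samd9l, a translation regulator that restricts poxviruses, had 116, 44.1 and 65.4 CPM in the 24 h libraries and 26.0, 30.7 and 34.7 CPM in the 0 h libraries, and lost its call on leaving out replicate 1 at 0 h (adjusted p = 0.0646). Mx1 and Mx2 are dynamin-like GTPases, and Mx1 had the lowest mean level of all members at 24 h per kilobase of gene length (0.760 CPM). In CPM, Mx1 had 3.71, 1.38 and 1.69 CPM in the 24 h libraries and 0, 0 and 0.488 CPM in the 0 h libraries, from 58 counts at 24 h and 4 counts at 0 h (adjusted p = 0.0285). Mx1 lost its call on leaving out replicate 1 or 2 at 0 h (adjusted p = 0.0899 in both cases) or replicate 1 at 24 h (adjusted p = 0.0879). Mx2 had 20.2, 3.50 and 3.70 CPM in the 24 h libraries and 1.403, 2.40 and 1.83 CPM in the 0 h libraries, and with an adjusted p of 0.0454 it stood just inside the threshold. The Mx2 log2 fold change of 2.26 became 0.97 without 24 h replicate 1 (adjusted p = 0.201), and Mx2 was also not called when any 0 h library was left out (adjusted p = 0.136, 0.0880 and 0.118 without 0 h replicates 1, 2 and 3). Laboratory mouse strains such as C57BL/6 are known to carry defective Mx genes.

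The 7 genes for ubiquitin-like and ADP-ribose modifiers all rose. Isg15, the ubiquitin-like protein that is attached to target proteins, had 65.2, 22.9 and 15.6 CPM in the 24 h libraries and 1.403, 2.91 and 1.22 CPM in the 0 h libraries, a log2 fold change of 4.20 ± 0.61 (SE, adjusted p = 0.00156), and 3.40 without 24 h replicate 1. Usp18 removes Isg15 from proteins and also damps signalling at Ifnar2, and it had 79.5, 40.4 and 24.2 CPM in the 24 h libraries and 6.21, 8.22 and 9.27 CPM in the 0 h libraries (fold change 6.08, adjusted p = 0.00238). Herc6, the main ligase for Isg15 in mouse, had 65.7, 22.1 and 24.1 CPM in the 24 h libraries and 13.0, 14.4 and 14.3 CPM in the 0 h libraries. The fold change was 18.4 for Isg15 and 2.67 for its ligase gene, a difference between genes that was not tested. Herc6 had an adjusted p of 0.0287 and was not called when any single 0 h library was left out (adjusted p = 0.0913, 0.0731 and 0.0754 without 0 h replicates 1, 2 and 3).

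Parp14, a mono-ADP-ribosyltransferase, had 122, 62.3 and 61.5 CPM in the 24 h libraries and 18.7, 19.4 and 18.8 CPM in the 0 h libraries, a log2 fold change of 2.11 ± 0.27 (SE, adjusted p = 0.000876). Parp9 and Dtx3l, which work as a pair of ADP-ribosyltransferase and ubiquitin ligase, lie head to head beside Parp14 on chromosome 16. Parp9 had 60.6, 39.7 and 37.0 CPM in the 24 h libraries and 11.0, 11.0 and 15.6 CPM in the 0 h libraries (fold change 3.65, adjusted p = 0.000930). Dtx3l had 48.1, 29.6 and 34.5 CPM in the 24 h libraries and 12.7, 14.6 and 12.2 CPM in the 0 h libraries (fold change 2.83, adjusted p = 0.00143). Both were highest in 24 h replicate 1, and their deposited spans share 558 bases, so some reads may belong to either. Trim30a, a TRIM protein that in mouse dampens NF-kB signalling, had 56.1, 23.05 and 16.6 CPM in the 24 h libraries and 1.60, 2.40 and 3.29 CPM in the 0 h libraries, with reads that its close copies may share.

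The remaining 6 induced genes all rose. Rtp4, a chaperone of membrane receptors that restrains interferon signalling in mouse, had 34.9, 20.7 and 24.7 CPM in the 24 h libraries and 1.20, 2.30 and 2.68 CPM in the 0 h libraries. Its log2 fold change of 3.70 ± 0.34 (SE) carried the lowest adjusted p of the 39 members (0.000202). Ifi44, a negative regulator of the response, had 90.3, 19.5 and 10.5 CPM in the 24 h libraries and 1.30, 0.100 and 1.71 CPM in the 0 h libraries, a log2 fold change of 5.29 ± 0.99 (SE, adjusted p = 0.00496). Ifi44 was the member that leaned most on 1 library, since 24 h replicate 1 was 6.02-fold above the mean of the other 24 h libraries. Its log2 fold change without that library was 3.91 (adjusted p = 0.00783). With limma-voom on all libraries Ifi44 was not called (adjusted p = 0.101). Lgals3bp, a secreted glycoprotein that binds galectins, had 377, 152 and 158 CPM in the 24 h libraries and 82.2, 80.3 and 124 CPM in the 0 h libraries (adjusted p = 0.0306). Lgals3bp lost its call on leaving out replicate 1 or 2 at 0 h, with adjusted p values of 0.0986 and 0.0970.

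Xaf1, which promotes apoptosis by binding the inhibitor XIAP, had 43.2, 18.4 and 14.3 CPM in the 24 h libraries and 6.21, 3.81 and 6.47 CPM in the 0 h libraries (fold change 4.59, adjusted p = 0.00662). Ifi35 had 31.8, 22.9 and 15.4 CPM in the 24 h libraries and 5.71, 9.32 and 4.76 CPM in the 0 h libraries (fold change 3.52, adjusted p = 0.00517). Ifi27l2a had 2.30, 3.82 and 4.97 CPM in the 24 h libraries and 0.601, 0.401 and 1.10 CPM in the 0 h libraries (fold change 5.30, adjusted p = 0.0134). Per kilobase of gene length it was the lowest of these 6 genes at 24 h (4.19 CPM), and it shares 6057 of the 9808 bases of its deposited span with Ifi27, which had 71.2, 71.8 and 75.1 CPM in the 24 h libraries and 30.3, 39.7 and 41.7 CPM in the 0 h libraries. Ifi27l2a lost its call on leaving out replicate 1 or 2 at 0 h, with adjusted p values of 0.0505 and 0.0547.

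**Figure D2:**
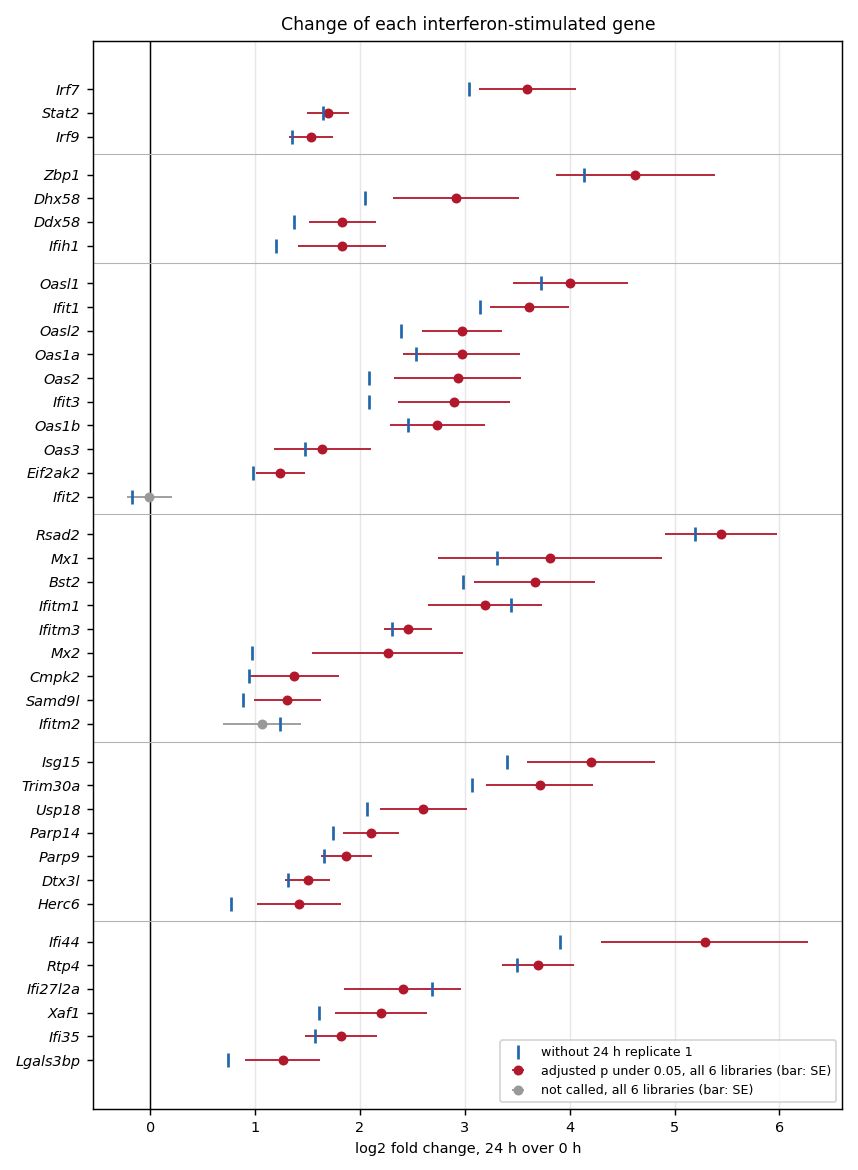
Log2 fold change of each member, 24 h over 0 h, in the same order by role, with bars for the standard error of the fit over 6 libraries and a blue tick for the value without 24 h replicate 1. Ifit2 and Ifitm2 (grey) were not called, and the ticks lie left of the points for all members but Ifitm1, Ifitm2 and Ifi27l2a, which were highest in 24 h replicate 3.

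The members differed more among the 24 h libraries than among the 0 h libraries. The SD was 52.1% of the mean at 24 h for the median member and 26.8% of the mean at 0 h, while it was 16.4% of the mean at 24 h for the median of all genes called higher. The highest 24 h library was replicate 1 for 35 members, replicate 2 for 1 (Stat2) and replicate 3 for 3 (Ifitm1, Ifitm2 and Ifi27l2a). Replicate 1 was thus highest for 89.7% of members, against 29.5% of all genes tested and 22.3% of genes called higher. The median fold over the mean of the 0 h libraries was 7.74 in 24 h replicate 1, 3.90 in 24 h replicate 2 and 3.50 in 24 h replicate 3. The direction was therefore shared by all 24 h libraries, and the size was not. The level in 24 h replicate 1 over the mean of 24 h replicates 2 and 3 had a median of 2.19 over members and 0.988 over all genes tested. It ranged from 0.524 (Ifi27l2a) to 6.02 (Ifi44), and was above 2 for 22 of 39 members and for 5.24% of all genes tested. The part of Rn45s content and of pigment cells in this spread was not tested.

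Related lists show how far that lean reached. Replicate 1 was the highest 24 h library for 38 of 52 other interferon-stimulated genes tested, for 12 of 14 guanylate-binding and immunity-related GTPases and for 12 of 15 genes of MHC class I presentation. It was highest for 11 of 34 interferon signalling genes, for 4 of 15 genes of NF-kB and acute inflammation and for 0 of 6 neutrophil markers. Genes of the acute inflammatory response were all higher at 24 h as well (15 of 15, of which 7 passed the filter on low counts only through their 24 h counts), but their median ratio of 24 h replicate 1 to the mean of the other 24 h libraries was 0.977. Among the named ones, Ccl2, a monocyte chemokine, had 254, 294 and 226 CPM in the 24 h libraries and 2.91, 1.90 and 2.93 CPM in the 0 h libraries, with much less spread at 24 h. Bcl3, a regulator of NF-kB, had 54.6, 53.8 and 46.3 CPM in the 24 h libraries and 0.601, 0.501 and 0.610 CPM in the 0 h libraries.

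**Figure D3:**
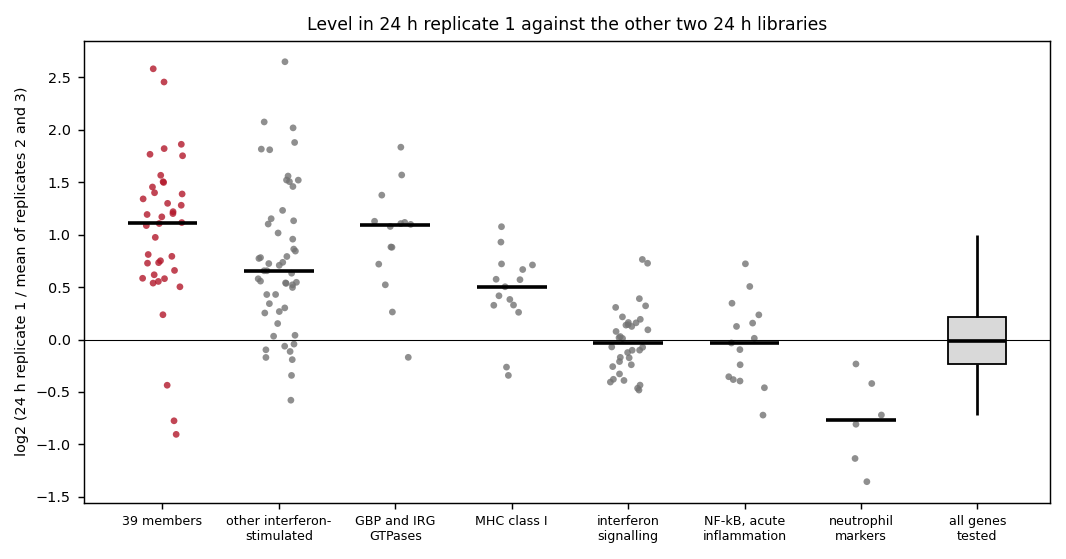
Log2 ratio of the level in 24 h replicate 1 to the mean of 24 h replicates 2 and 3 with a point for each gene tested (0.1 CPM added to each), with black bars for list medians. The box spans percentiles 25 to 75 of all genes tested and its whiskers percentiles 5 to 95, and members, GTPases and MHC class I genes lie mostly above 0 while signalling, inflammation and neutrophil genes do not.

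The interferons themselves were at or near 0. Of 21 interferon genes found, 18 had 0 counts in all 6 libraries, among them Ifnb1 and Ifng, where 3 counts correspond to at most 0.384 CPM in a library. Ifna2 had 3 counts in 24 h replicate 2, Ifna4 had 1 count in 24 h replicate 1 and Ifne had 1 count in 0 h replicate 1. None passed the filter on low counts, so no difference was detectable at this depth.

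Of 34 genes of interferon signalling tested, 18 were higher and 1 was lower. Among receptors, Ifnar2 had 40.4, 39.4 and 39.9 CPM in the 24 h libraries and 20.9, 22.6 and 27.0 CPM in the 0 h libraries (adjusted p = 0.00635). Ifnar1 had 125, 149 and 132 CPM in the 24 h libraries and 90.4, 105 and 121 CPM in the 0 h libraries and was not called (adjusted p = 0.117). Il10rb, a subunit of the interferon lambda and interleukin 10 receptors, had 40.7, 32.8 and 43.5 CPM in the 24 h libraries and 13.2, 15.5 and 13.8 CPM in the 0 h libraries (adjusted p = 0.000600). Transcripts of the receptor chains were thus already present at 0 h, and Ifnar2 did not spread across the 24 h libraries as the members did.

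Among the transcription factors, Irf1, which also drives many of these genes, had 35.7, 36.1 and 28.8 CPM in the 24 h libraries and 13.4, 15.7 and 11.7 CPM in the 0 h libraries (adjusted p = 0.00145). Irf3, which is activated by phosphorylation, had 41.8, 33.6 and 30.2 CPM in the 24 h libraries and 21.7, 26.1 and 16.8 CPM in the 0 h libraries (adjusted p = 0.0341). Irf3 lost its call on leaving out replicate 1 or 2 at 24 h, with adjusted p values of 0.0985 and 0.0615, or replicate 1 or 3 at 0 h, with adjusted p values of 0.0814 and 0.101. Stat3, the factor of the interleukin 6 family, had 277, 279 and 303 CPM in the 24 h libraries and 177, 165 and 153 CPM in the 0 h libraries (adjusted p = 0.00326). The fold change of Irf1 was 2.45, below those of most members.

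Among the feedback inhibitors, Socs3 had 193, 184 and 199.6 CPM in the 24 h libraries and 11.8, 11.6 and 7.56 CPM in the 0 h libraries (fold change 18.5, adjusted p = 1.13e-05). Socs1, the main brake on interferon receptors, was scarce, with 3.45, 5.31 and 2.11 CPM in the 24 h libraries and 1.403, 0.902 and 0.610 CPM in the 0 h libraries (adjusted p = 0.0328). Socs1 lost its call on leaving out replicate 1 or 2 at 24 h, with adjusted p values of 0.0664 and 0.113, or replicate 2 or 3 at 0 h, with adjusted p values of 0.102 and 0.110. The lower gene was Pias1, a SUMO ligase, with 40.9, 44.1 and 50.6 CPM in the 24 h libraries and 56.0, 72.0 and 71.3 CPM in the 0 h libraries (adjusted p = 0.0266). Myd88, the adaptor of Toll-like and interleukin 1 receptors, had a fold change of 3.48 (adjusted p = 0.000491), and the phosphatase gene Ptpn11 was not called (adjusted p = 0.318). Against a 1.5-fold change 8 signalling genes were called.

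Of 62 further interferon-stimulated genes listed, 61 were found and 52 tested, of which 31 were higher and 1 lower. Of the 52, 19 passed the filter on low counts only through their 24 h counts, which bears on the count of higher genes as it does for the members. Slfn4, a schlafen family gene expressed in myeloid cells, had 65.1, 85.4 and 79.7 CPM in the 24 h libraries and 0.601, 0.501 and 0.488 CPM in the 0 h libraries (adjusted p = 2.35e-06). Cxcl10, a chemokine that draws T cells, had 16.6, 16.9 and 5.92 CPM in the 24 h libraries and 0.100, 0.802 and 0 CPM in the 0 h libraries (adjusted p = 0.00205). Ifi204, a DNA-binding protein of the p200 family, had 35.8, 23.05 and 19.9 CPM in the 24 h libraries and 0.701, 1.00 and 1.83 CPM in the 0 h libraries (adjusted p = 0.000168). Slfn2 had a fold change of 10.1 (adjusted p = 0.000150). Slfn4 was even across the 24 h libraries and Cxcl10 was lowest in 24 h replicate 3. The lower gene was Tdrd7, an RNA granule protein that the lens needs to stay clear, with 195, 188 and 191 CPM in the 24 h libraries and 534, 349 and 424 CPM in the 0 h libraries (adjusted p = 0.00190). Ly6e had 296, 66.9 and 102 CPM in the 24 h libraries and 41.7, 72.3 and 69.7 CPM in the 0 h libraries and was not called (adjusted p = 0.0780), except without the low-count filter and on leaving out replicate 2 or 3 at 24 h, with adjusted p values of 0.0459, 0.0254 and 0.0449.

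All 14 guanylate-binding and immunity-related GTPases tested, of 19 found, were higher, and 13 of 15 tested genes of MHC class I presentation were. Without 24 h replicate 1, 11 of the 14 GTPases and 13 of the 15 MHC class I genes were called higher. The filter on low counts was passed only through 24 h counts by 5 of the 14 GTPases. The same held for 1 of the 15 MHC class I genes, which bears on both counts of higher genes. Gbp2, a GTPase that coats pathogen vacuoles, had 139, 98.6 and 70.6 CPM in the 24 h libraries and 11.5, 15.0 and 13.7 CPM in the 0 h libraries. Irgm1 and Gbp3 had fold changes of 6.44 and 16.8, and Irgq, at 1.397, was not called when any library but 0 h replicate 1 was left out (adjusted p = 0.0512 to 0.143). H2-K1, a class I heavy chain, had 295, 258 and 183 CPM in the 24 h libraries and 59.7, 71.7 and 71.3 CPM in the 0 h libraries (fold change 3.63). H2-D1 and Tap1 had fold changes of 5.76 and 5.58, and the chaperones Calr and Pdia3 had fold changes of 2.52 and 1.72.

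Markers of blood cells that are known for strong interferon responses were measured beside these genes. The summed level of 8 neutrophil markers was 95.5, 129 and 183 CPM in the 24 h libraries and 5.81, 12.9 and 16.4 CPM in the 0 h libraries, and among the 24 h libraries it was lowest in replicate 1, where most members were highest. Elane had 0 counts in every library, and all 6 markers tested were higher, of which 4 passed the filter on low counts only through their 24 h counts. The summed level of 12 monocyte and macrophage markers was 105, 82.7 and 183 CPM in the 24 h libraries and 77.0, 148 and 178 CPM in the 0 h libraries, so the groups overlapped. Of 11 tested, 2 were higher (Cd68 and Ccr2) and 3 lower (Csf1r, Mrc1 and Cx3cr1). The summed level of 8 markers of plasmacytoid dendritic cells, the specialised interferon producers, was 178, 207 and 184 CPM in the 24 h libraries and 258, 276 and 265 CPM in the 0 h libraries. Most of that sum came from Tcf4 and Pacsin1, which other cells also express, and of the 3 tested Tcf4 was lower and Pacsin1 and Il3ra were not called. Il3ra had 7.55, 13.5 and 11.6 CPM in the 24 h libraries and 3.91, 6.41 and 7.56 CPM in the 0 h libraries (adjusted p = 0.0892, edgeR). Siglech, a defining marker of these cells, had 0.767, 0.531 and 0.211 CPM in the 24 h libraries and 0.701, 2.91 and 2.07 CPM in the 0 h libraries, and Ly6d and Klk1 were at 0. The summed level of 10 T and NK cell markers was 2.174, 1.91 and 0.634 CPM in the 24 h libraries and 2.104, 1.10 and 2.20 CPM in the 0 h libraries, with Gzma, Klrb1c, Ncr1 and Cd3g at 0. The part of neutrophils and monocytes in the members' change was not tested.

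The 39 genes lie on 14 chromosomes, and 20 of them sit in 7 clusters with gaps under 300 kb. The clusters hold Rsad2 and Cmpk2 on chromosome 12, Parp14, Dtx3l and Parp9 on chromosome 16, Mx1 and Mx2 further along chromosome 16, the 3 Ifit genes on chromosome 19, Oasl2 and Oasl1 on chromosome 5, the 4 Oas genes on the same chromosome, and Ifitm2, Ifitm1, Ifitm3 and Irf7 on chromosome 7. Neighbours did not always move alike, as with Rsad2 and Cmpk2 (fold changes 43.4 and 2.59) and with Ifit1 and Ifit2 (fold changes 12.3 and 0.994).

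RefSeq promoters were matched for 28 of the 39 members, with 31 windows because Ifit2, Irf9 and Trim30a had 2 starts each. The ISRE core occurred in 14 of the 28 (50.0%), against 3.99% of the 27025 genes with a promoter of the same length. There were 22 matches, the first bases of which lay from 222 bases before the start to 32 bases after it. Over all windows 7 members had more than 1, but Trim30a had only 1 in each of its 2 windows. Isg15 had 3 that overlapped end to end, at -78, -72 and -66, and Rsad2 had 1 at -120. Ifitm3 had matches just after the start, at 2 and 19, while Ifitm2, which was not called, had 1 at -46. The element was found in 5 of 8 genes of the RNA and translation group, 4 of 7 of the entry and replication group and 2 of 2 sensors. It was found in 2 of 4 modifiers, 1 of 3 regulators and 0 of 4 of the other induced genes. The regulator that held it was Stat2, and Irf7 and Irf9 had none in their windows. Ifi44, with a fold change of 39.1, had none in its window, and Eif2ak2, with a fold change of 2.36, had 1.

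Another element, the gamma-activated sequence of the response to interferon gamma, was searched as TTCNNNGAA on both strands. It occurred in 6 of the 28 members (21.43%) and in 9.55% of all genes with a promoter, and it overlapped an ISRE match in Bst2 and in Ifitm3. The ISRE core occurred in 19 of the 50 other interferon-stimulated genes with a promoter, 10 of 12 guanylate-binding and immunity-related GTPases, 3 of 15 MHC class I presentation genes, 3 of 29 signalling genes and 1 of 12 NF-kB and acute inflammation genes. These matches describe letters in a window of fixed length and are not evidence of binding.

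**Figure D4:**
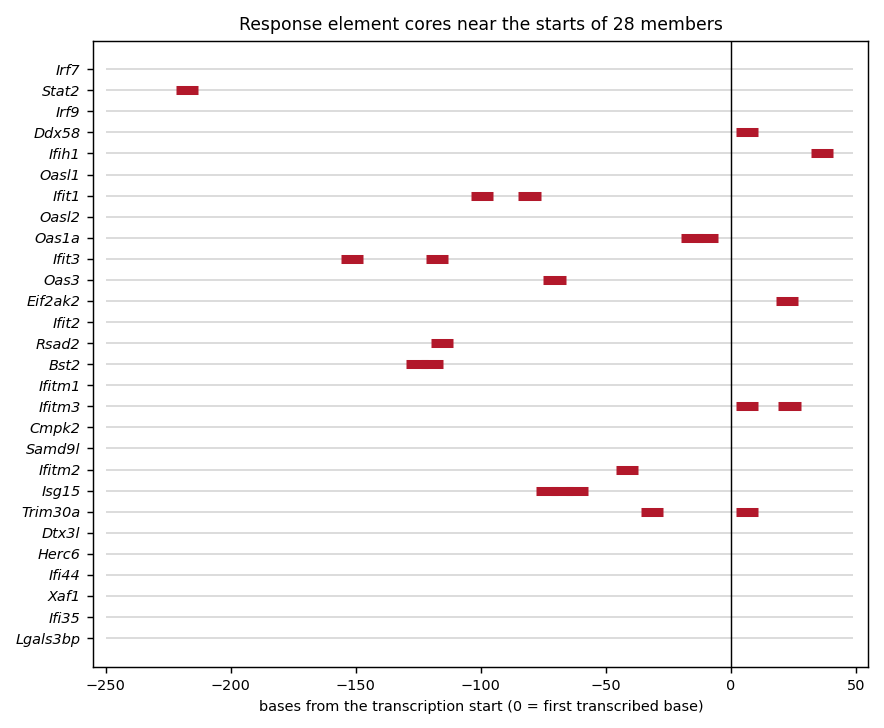
Positions of matches to the ISRE core (red) in windows from 250 bases before to 50 bases after the RefSeq transcription start of 28 members, in bases from the start on the horizontal axis and by role down the page. Genes with 2 starts share a line, and the matches fall on both sides of the start, with 14 genes holding at least 1.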

How the data were processed

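RNA was sequenced from 6 libraries of lens capsule with its attached epithelial cells. Per the submitters' processing notes, Trim Galore 0.4.4, TopHat2 2.1.0, HTSeq 0.6.1p1 and build mm10 were used. The labels name both an unstranded and a stranded TruSeq kit, but no source used here gives the strand setting or the annotation, so overlapping genes may share reads. The authors deposited raw gene counts as whole numbers. The deposited RPKM values equal count over length and library total, and were not tested.

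Low counts were removed with filterByExpr, which left 13956 genes holding at least 99.82% of the counts of a library. After TMM scaling, the 24 h libraries were tested against the 0 h libraries with edgeR 4.0.16 in R 4.3.3 (quasi-likelihood, two-sided, Benjamini-Hochberg over all genes tested). The script was tested on simulated data. CPM values are TMM-scaled, and standard errors (SE) are approximate, taken from the F statistic. The 95% intervals rest on these SE and 4 residual degrees of freedom, so they are approximate and need not match the p-values. The biological coefficient of variation was 25.1%. In these units 3 counts are 0.301 to 0.384 CPM per library, a floor for counting error only. The series calls the libraries biological triplicates, so p-values measure the spread between them. Alternatives used DESeq2 1.42.0, limma 3.58.1, other scalings and filters, a 1.5-fold threshold, a replicate block and leaving out each library.

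Members and lists were chosen with earlier results of these data known. By rule the text gives every library's values for the regulators and, in each role group, for the 2 members with the lowest p, the most abundant at 24 h and the one with the highest p, and in each related list it names the 3 genes with the lowest p and the 2 most abundant, plus Ifnb1, Ifng, Ifnar1, Ifnar2, Irf1, Irf3, Socs1 and Cxcl10. Values of other genes were added after they were seen, and a gene that the rule names is not reported here.

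Promoters came from RefSeq (GRCm38.p6) by symbol, and 11 members had no entry there (Oas2, Dhx58, Oas1b, Mx1, Zbp1, Mx2, Rtp4, Parp9, Usp18, Parp14 and Ifi27l2a). Coordinates of genes are as deposited.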

Additional observations from a re-analysis of the deposited data

How the results depend on the processing

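Members called higher numbered 38 with library totals only, without the low-count filter and with DESeq2. They numbered 37 with median-ratio size factors and with a minimum of 1 CPM in 3 libraries, 32 with limma-voom and 30 against a 1.5-fold change. In all 14 alternatives 0 members were lower. Of all genes, 2323, 2155 and 2314 were called higher with library totals only, without the low-count filter and with DESeq2. The numbers were 2155 with median-ratio size factors, 2132 with the 1 CPM minimum and 2052 with limma-voom. These fits tested 13956 genes, except 18703 without the low-count filter and 14092 with the 1 CPM minimum. Over the fits that left out 1 library, 29 to 37 members were higher (29 without 0 h replicate 1), and the members' median log2 fold change was 2.07 to 2.68. In these 14 alternatives 26 members kept their direction and their side of the threshold. Ifit2 changed sign but was never called, with a log2 fold change of 0.069 with library totals only and of -0.18 to 0.12 over the fits that left out 1 library. Against a 1.5-fold change 1060 genes were higher, 629 were lower and 8 signalling genes were called, since that test asks for a larger change. Leaving out a library gave 1041 to 1648 lower genes (1041 without 0 h replicate 3, the cause was not tested), 1551 to 1897 higher genes, 15 to 20 signalling genes called, 25 to 36 other interferon-stimulated genes, 11 to 13 GTPases and 11 to 14 MHC class I genes. The labels do not say whether equal replicate numbers mark pairs of libraries. Deviations from the group means correlated at 0.0866, 0.215 and 0.397 for numbers 1, 2 and 3. For 24 h replicates 2 and 3 the same number correlated best, while 24 h replicate 1 correlated best with 0 h replicate 2 (0.172). These correlations do not settle whether the libraries are paired. With the replicate block 37 members were higher, with Ifitm2 called (log2 fold change 0.93, adjusted p = 0.00686) and Mx2 not called (1.81, adjusted p = 0.0626), and 2315 genes were higher and 2174 lower. Depth limits the interferons most, and among the members Mx1, which had the fewest counts.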

Other observations

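Genes that connect nucleic acid sensing to interferon production, chosen after their values were seen, did not move as one group. Tmem173, which encodes STING, the adaptor of cytosolic DNA sensing, had 25.8, 19.8 and 35.7 CPM in the 24 h libraries and 5.41, 11.5 and 10.9 CPM in the 0 h libraries (log2 fold change 1.55 ± 0.33 (SE), adjusted p = 0.00896 by edgeR's quasi-likelihood test). Ikbke and Irf5, a kinase and a factor of the same route, were also higher, with log2 fold changes of 1.77 ± 0.36 (SE, adjusted p = 0.00741) and 2.169 ± 0.62 (SE, adjusted p = 0.0301). Mavs, the adaptor of RIG-I and MDA5, and the kinase gene Tbk1 were not called, with log2 fold changes of -0.30 ± 0.14 (SE, adjusted p = 0.140) and 0.02 ± 0.18 (SE, adjusted p = 0.960). Tlr7, an endosomal RNA sensor, had 0.895, 1.17 and 1.27 CPM in the 24 h libraries and 1.503, 4.51 and 4.03 CPM in the 0 h libraries and was not called (adjusted p = 0.0609).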
